A study of Homo sapiens with 18 samples.

Results

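Replication-dependent and linker histone genes were examined in RNA-seq of NCI-H2052 cells (H2052), a human pleural mesothelioma line with mutations in the Hippo pathway genes NF2 and LATS2. The members were all genes of the H2052 count table whose symbol starts with HIST1H, HIST2H, HIST3H or HIST4H, which gave 72 of 30954 gene IDs. By the histone named in the symbol, 6 were H1, 17 H2A, 19 H2B, 15 H3 and 15 H4 genes. GENCODE 29 annotates the H2B member HIST2H2BA as a pseudogene, and HIST2H3PS2 (an H3) has a pseudogene symbol but a protein-coding entry. Neither had a count. Of these genes 55 lie on chromosome 6, 16 on chromosome 1 and 1 (HIST4H4) on chromosome 12.

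Cells were given 1 µM VT107, which blocks the palmitoylation of TEAD transcription factors, or the matching volume of DMSO for 24 h. The 4 groups were parental cells in DMSO, parental cells in VT107, NF1 mutant cells in DMSO and NF1 mutant cells in VT107, with 3 libraries each, described in the study as biological replicates. NF1 mutant cells carry a CRISPR/Cas9 mutation in NF1, a negative regulator of RAS signalling, on the same NF2 and LATS2 mutant background, and were made by lentiviral delivery of Cas9 and a guide followed by drug selection. Whether the parental libraries came from cells with Cas9 is not given in the sources used here.

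Core histones H2A, H2B, H3 and H4 form the nucleosome, and H1 binds the linker DNA between nucleosomes. Most of their genes sit in clusters and are transcribed in S phase, when new DNA has to be packaged. Their main transcripts have no introns and no polyA tail. They end instead just after a short stem-loop that is bound by SLBP, and the site is cut with the help of the U7 snRNP. Many of these genes also give some polyadenylated RNA, made by use of a polyA signal further downstream, for example in differentiated or resting cells. The labels name the sequenced molecule as polyA RNA, so the counts hold whichever histone transcripts were carried through such a preparation, and the main tail-less transcripts cannot be measured as a class from them.

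The sum of gene counts lay between 10950284 and 13418485 in parental libraries and between 3285363 and 5489092 in NF1 mutant libraries. Values are given as CPM, the usual scaling of counts to that sum, and differences as log2 fold changes (log2FC) with their standard error (SE). The column headers name parental and NF1 mutant libraries with different prefixes, so genotype and library set cannot be told apart. Both parental libraries of number 3 stood apart from the other parental libraries, and the main comparisons of histone genes are given without them as well. NF1 mutant VT107 number 1 also stood apart, with 3.94 CPM of SLBP against 28.5 to 49.6 CPM in the other 5 NF1 mutant libraries. NF1 itself was at 70.0, 64.6 and 34.4 CPM in parental DMSO and at 12.8, 17.0 and 18.3 CPM in NF1 mutant DMSO libraries (log2FC -1.78, SE 0.27, edgeR adjusted p = 0.00229). Under VT107 it was at 63.9, 49.7 and 27.2 CPM in parental and at 6.72, 18.5 and 16.7 CPM in NF1 mutant libraries (log2FC -1.75, SE 0.46, edgeR adjusted p = 0.141). All 9 mesothelial markers had counts, with a summed level of 2356 to 4357 CPM in parental and 4381 to 6392 CPM in NF1 mutant libraries. The keratin genes KRT8, KRT18 and KRT19 made up most of that sum in every library. KRT19 was at 1113 to 2279 CPM in parental DMSO and 2418 to 3564 CPM in NF1 mutant DMSO libraries. HEG1 was at 314 to 403 CPM and 270 to 302 CPM in the same groups. MSLN was at 13.3 to 57.9 CPM and UPK3B at 0.298 to 1.52 CPM. CALB2 had 0, 0 and 1 counts in NF1 mutant DMSO libraries. Of 10 leukocyte markers, CD3E, CD2, MS4A1 and TYROBP were at 0 counts in all 12 libraries, and the summed level was 0.522 to 8.58 CPM in parental and 1.82 to 3.01 CPM in NF1 mutant libraries. CD74 gave 5.02 and 7.08 CPM in the parental number 3 libraries and at most 3.01 CPM elsewhere, and endothelial and epithelial markers summed to under 0.5 CPM in every library.

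The 3′ end signals of the members are shown first, because they decide which transcripts can carry a polyA tail. In GENCODE 29 (GRCh38), 71 of the 72 genes had a transcript, 37 matched by gene ID and 34 by symbol, and HIST2H2AA3 was not matched. A 16-base hairpin with a stem of 6 pairs, opening with GG and closing with CC, was found in a transcript of 30 of these genes. The polyA signal AATAAA lay in the last 50 bases of a transcript of 20 genes, both features were found in 18, and neither in 39. These counts do not ask on which side of the hairpin AATAAA lies. In HIST1H4J, which is counted in both, it lies just before the hairpin and not after it. Over all 83129 protein-coding transcripts of that annotation, 0.286% held such a hairpin and 35.5% had AATAAA in the last 50 bases. Many annotated histone transcripts hold the coding sequence alone, such as the 642-base HIST1H1C and the 381-base HIST1H2BK entries, so that a missing match says only that these letters are not in the annotated sequence. The hairpin had 5 distinct sequences. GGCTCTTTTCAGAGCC was found in 16 genes, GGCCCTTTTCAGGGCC and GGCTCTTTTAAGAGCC in 5 each, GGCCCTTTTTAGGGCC in 3 and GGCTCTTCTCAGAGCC in 1.

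The hairpins of the 4 genes with at least 100 counts in which one was found are printed with 5 bases on either side, the hairpin in capitals.
HIST2H2BE: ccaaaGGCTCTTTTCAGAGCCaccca
HIST1H2AC: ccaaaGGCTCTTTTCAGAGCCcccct
HIST1H2BD: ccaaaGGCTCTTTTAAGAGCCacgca
HIST1H4H: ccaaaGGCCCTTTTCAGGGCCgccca

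The same 4 genes have a transcript that ends near a polyA signal, shown here with AATAAA in capitals.
HIST2H2BE: ttgttattAATAAAgttaccaa
HIST1H2AC: catgaggtAATAAAaggtaatg
HIST1H2BD: ttataattAATAAAatctgcgg
HIST1H4H: aaaaggtgAATAAAatcaggtc

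In HIST2H2BE the 2194-base transcript went on for 1729 bases after the hairpin, and in the HIST1H2AC transcript of 1654 bases for 1114 bases. HIST1H2BD has a 496-base transcript with the hairpin and 39 further bases, which also hold an AATAAA with 21 bases after it. Its 789-base transcript has the printed polyA signal and no hairpin. HIST1H4H has a 397-base transcript that stops 18 bases after the hairpin and a 1034-base protein-coding transcript that goes on for 630 bases after it. HIST1H4C, the H4 gene with the most counts, had neither feature in its 435-base transcript. That entry ends in an A-rich stretch, with 18 A among the last 21 bases (in capitals here).
HIST1H4C: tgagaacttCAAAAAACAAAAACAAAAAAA

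Promoters were compared next, since histone types are known to carry different promoter elements. Windows of 300 bases around the start (250 before to 50 after) were available from RefSeq (GRCh38.p14) for 61 of the 72 genes, HIST1H4C not among them. The octamer ATTTGCAT, bound by OCT1 (POU2F1), was found on either strand in 9 of 13 H2B windows, 11 of 16 H2A windows, 1 of 13 H3 windows and in no H1 or H4 window, against 2.19% of all 27305 genes with a window. The sequence AAACACA, known as the H1 box, was found in 6 of 6 H1 windows, 1 of 16 H2A windows, 2 of 13 H3 windows and in no H2B or H4 window, against 6.94% of all genes. CCAAT was found in every H1, H2A, H2B and H3 window and in 3 of 13 H4 windows, against 39.7% of all genes. TATAAA was found in 42 of the 61 windows, against 14% of all genes. H2A and H2B genes often lie head to head, so that 1 motif can count in the windows of both. These matches describe the letters of the windows and not binding.

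**Figure D1:**
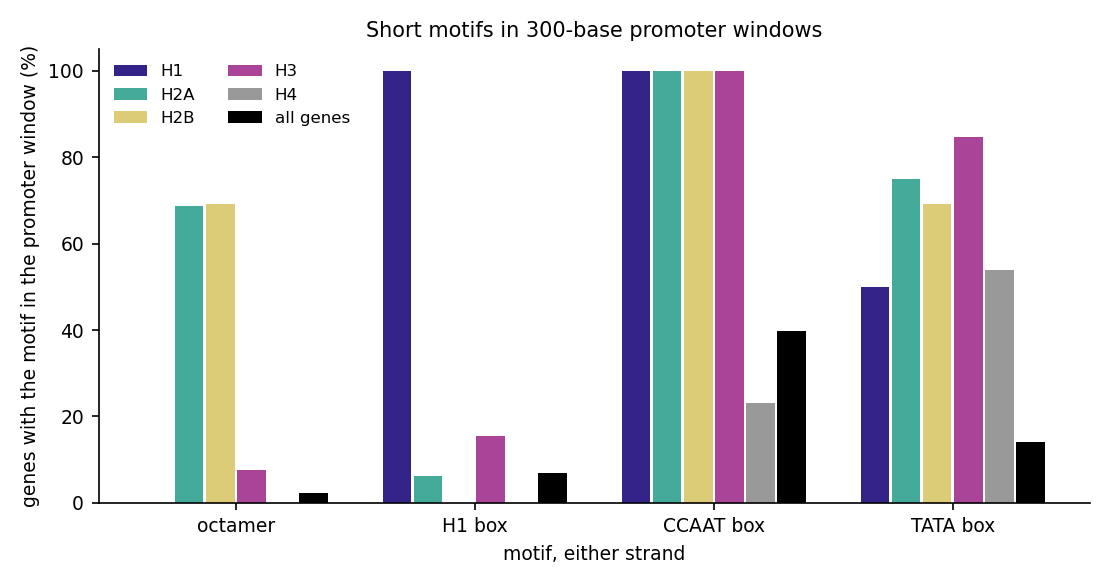
Percent of genes (vertical axis) with each of 4 short motifs on either strand of the 300-base promoter window, for the 5 histone types and for all 27305 genes (black). The octamer stands out in H2A and H2B windows, the H1 box in all 6 H1 windows, and CCAAT is present in every type but found in only 3 of 13 H4 windows.

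Windows of a linker histone gene and of the H2B genes HIST1H2BK and HIST2H2BE are printed because these genes are among those with the most counts. Capitals mark the H1 box on either strand in HIST1H1C (H1-2 in RefSeq, minus strand, chr6:26056421-26056720) and the octamer in HIST1H2BK (H2BC12, minus strand, chr6:27146809-27147108) and HIST2H2BE (H2BC21, minus strand, chr1:149886633-149886932).
HIST1H1C: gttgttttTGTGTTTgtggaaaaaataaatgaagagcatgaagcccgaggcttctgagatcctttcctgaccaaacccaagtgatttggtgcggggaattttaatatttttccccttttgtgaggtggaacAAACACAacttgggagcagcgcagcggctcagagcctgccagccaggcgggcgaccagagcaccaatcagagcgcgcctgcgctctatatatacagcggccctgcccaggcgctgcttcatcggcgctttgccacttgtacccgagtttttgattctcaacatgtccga
HIST1H2BK: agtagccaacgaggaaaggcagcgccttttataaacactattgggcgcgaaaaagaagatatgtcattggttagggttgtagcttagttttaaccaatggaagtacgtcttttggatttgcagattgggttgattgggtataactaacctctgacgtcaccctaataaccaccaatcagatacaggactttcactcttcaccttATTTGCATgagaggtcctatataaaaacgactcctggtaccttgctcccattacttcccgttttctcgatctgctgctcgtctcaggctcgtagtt
HIST2H2BE: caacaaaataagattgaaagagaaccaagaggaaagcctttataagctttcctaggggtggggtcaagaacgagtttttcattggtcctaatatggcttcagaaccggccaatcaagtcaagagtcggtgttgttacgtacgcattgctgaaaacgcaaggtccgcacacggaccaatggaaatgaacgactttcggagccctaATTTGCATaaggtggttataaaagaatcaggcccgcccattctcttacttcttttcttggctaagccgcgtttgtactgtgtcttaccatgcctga

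Most histone genes gave few or no counts. Over the 12 libraries, 53 genes had at least 1 count and 19 (26.4%) had none, against 34.3% of all genes in the table. No count among 101933325 allows a level of up to 0.0294 CPM over the 12 libraries together, a limit that covers counting error only. Under 100 counts but at least 1 were found for 46 genes and at least 100 for 7. No share of all genes is given for this split, so it does not set histone genes apart from other genes. The 72 genes gave 13936 counts in all, of which HIST1H4C took 36.9%, the 3 genes with the most counts (HIST1H4C, HIST1H2BK and HIST1H1C) 77.6% and the leading 8 genes 93.9%.

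By type, H4 genes took 39.7% of the member counts, H2B 30.7%, H1 21.8%, H2A 7.2% and H3 0.517%. The summed level of all members was 250.3, 155 and 74.7 CPM in parental DMSO libraries 1 to 3 and 185, 275 and 74.2 CPM in parental VT107 libraries. In NF1 mutant cells it was 43.5, 38.6 and 33.8 CPM in DMSO and 58.9, 34.5 and 52.4 CPM in VT107. All 6 NF1 mutant libraries were therefore below all 6 parental libraries, and the parental number 3 libraries were the lowest of theirs. H4 was the least even type, at 128, 68.3 and 15 CPM in parental DMSO and 66.5, 149 and 4.89 CPM in parental VT107. H2B was the most even, at 39.8, 35.8 and 37.6 CPM in parental DMSO and 54.9, 61.5 and 49.2 CPM in parental VT107. H3 stayed at or below 1.34 CPM in every library.

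**Figure D2:**
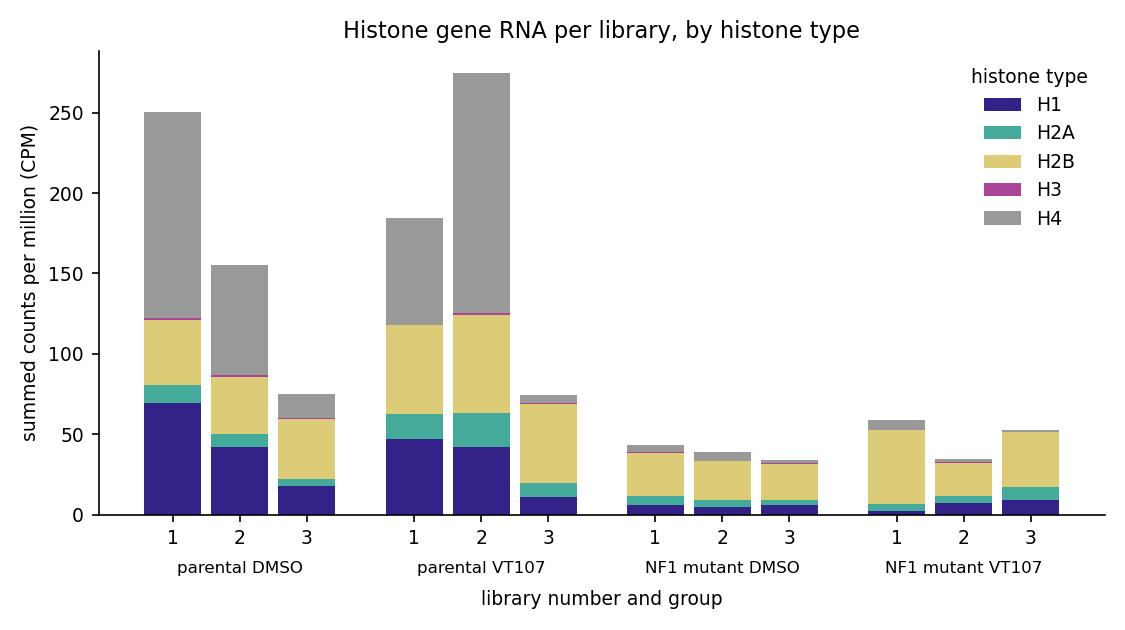
Summed CPM of H1, H2A, H2B, H3 and H4 genes (stacked, vertical axis) in each of the 12 libraries (horizontal axis, library numbers 1 to 3 within each group). H4 and H1 make up most of the height of parental libraries 1 and 2, while H2B leads in the number 3 libraries and in NF1 mutant cells, whose summed levels lie between 33.8 and 58.9 CPM.

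HIST1H4C (ENSG00000197061, hg19 chr6:26104104-26104518), an intronless H4 gene, carried most of this unevenness. It had 1495, 866 and 116 counts in parental DMSO libraries 1 to 3 and 843, 1761 and 27 counts in parental VT107 libraries. In NF1 mutant cells it had 11, 13 and 4 counts in DMSO and 9, 2 and 1 counts in VT107. Within each parental group the lowest library was therefore number 3, at 10.6 CPM in DMSO and 2.03 CPM in VT107 against 63.2 to 142 CPM in the other 4.

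HIST1H1C (ENSG00000187837, hg19 chr6:26055968-26056699), which encodes linker histone H1.2, was at 64.1, 38.0 and 16.3 CPM in parental DMSO and 42.9, 39.5 and 10.3 CPM in parental VT107 libraries. In NF1 mutant cells it was at 5.28, 4.86 and 5.52 CPM in DMSO and 2.09, 7.07 and 9.13 CPM in VT107. Number 3 was again the lowest parental library of each group, and every NF1 mutant library lay below every parental one. Of all genes tested, 23.5% had every NF1 mutant library below every parental one in DMSO and 14.1% under VT107. Per 1000 bases of gene span, the mean level over parental DMSO libraries was 160 CPM for HIST1H4C and 53.9 CPM for HIST1H1C. The other linker histone genes were far lower on that scale, at 1.51 CPM for HIST1H1E, 1.33 CPM for HIST1H1D and 1.24 CPM for HIST1H1B.

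Among H2B genes, HIST1H2BK (ENSG00000197903, hg19 chr6:27106073-27114619) varied least over the 12 libraries relative to its mean among the 7 genes with at least 100 counts, though not within each group. It was at 27.2, 22.8 and 26.8 CPM in parental DMSO, 33.3, 38.2 and 31.3 CPM in parental VT107, 21.3, 19.4 and 18.1 CPM in NF1 mutant DMSO and 40.8, 14.4 and 22.5 CPM in NF1 mutant VT107. Only 49.5% of the 75-base stretches of its annotated transcript occur in no other gene, so its counts are uncertain where reads were shared, and it overlaps HIST1H4I on the other strand (7 counts). HIST1H2BD (ENSG00000158373, hg19 chr6:26158349-26171577) was at 7.52, 7.97 and 7.12 CPM in parental DMSO and 14.5, 14.6 and 12.1 CPM in parental VT107, and at 3.10, 3.09 and 3.51 CPM in NF1 mutant DMSO and 3.01, 4.37 and 9.74 CPM in NF1 mutant VT107. HIST2H2BE (ENSG00000184678, hg19 chr1:149856010-149858232) was at 2.73, 3.95 and 2.83 CPM in parental DMSO and 5.24, 5.55 and 5.19 CPM in parental VT107, and at 0.729, 0.662 and 0.752 CPM in NF1 mutant DMSO and 1.39, 1.25 and 1.83 CPM in NF1 mutant VT107. Every parental VT107 library was above every parental DMSO library in these 3 genes, as in 2.82% of all genes tested. Number 3 was not set apart in them as it was for HIST1H4C and HIST1H1C. HIST1H2BC had 12, 8 and 4 counts in parental DMSO and 18, 32 and 7 in parental VT107, and at most 3 in any NF1 mutant library.

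The leading H2A gene, HIST1H2AC (ENSG00000180573, hg19 chr6:26124373-26139336), was at 6.86, 5.89 and 2.83 CPM in parental DMSO, 12.3, 16.1 and 4.89 CPM in parental VT107, 2.19, 1.10 and 1.5 CPM in NF1 mutant DMSO and 0.695, 3.12 and 4.87 CPM in NF1 mutant VT107. Here the number 3 library was the lowest of both parental groups, and the parental VT107 range overlapped that of DMSO through it. HIST2H2AC had 96 counts over the 12 libraries and lies inside BOLA1 on the same strand (436 counts), so its own level is uncertain. HIST1H2AG and HIST2H2AA3 had 81 and 49 counts, with 24 and 21 of them in parental VT107 number 3.

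Next to HIST1H4C, the second H4 gene was HIST1H4H (ENSG00000158406, hg19 chr6:26281283-26285762), at 3.47, 2.53 and 2.56 CPM in parental DMSO, 2.02, 3.78 and 0.828 CPM in parental VT107, 0.911, 1.55 and 0.752 CPM in NF1 mutant DMSO and 3.71, 0.832 and 0.609 CPM in NF1 mutant VT107. HIST1H4E and HIST1H4J followed with 76 and 36 counts over the 12 libraries. The H3 genes gave 72 counts together, led by HIST1H3D with 34, HIST1H3C with 17 and HIST1H3J with 7, and HIST1H3G had 4 counts in all (0 or 1 in all libraries but parental DMSO number 2, with 2). None of the 75-base stretches of HIST1H3D is unique to it. Near-identical copies are a limit for such genes: under 10% of these stretches were unique in 5 genes with 1 to 99 counts and in 4 genes with no count.

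**Figure D3:**
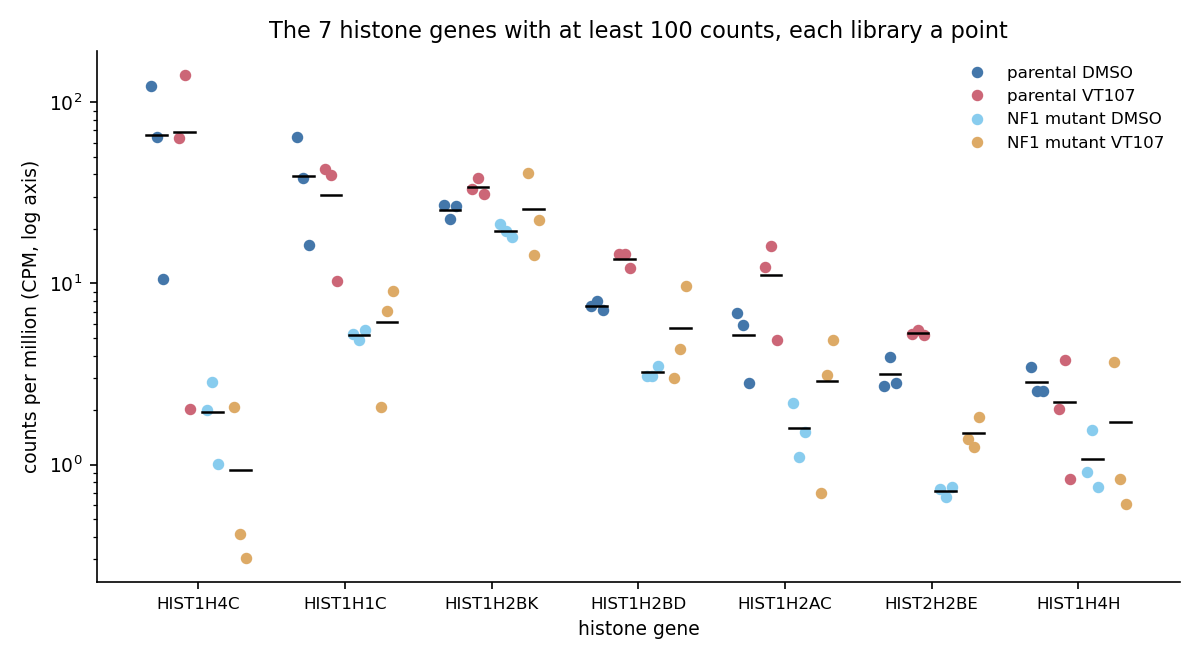
CPM (log axis) of the 7 histone genes with at least 100 counts over the 12 libraries, with a point for each library, colours for the 4 groups and a black line at the group mean. HIST1H4C and HIST1H1C spread widely within parental groups, while parental DMSO and VT107 points stay apart for HIST1H2BK, HIST1H2BD and HIST2H2BE.

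VT107 was compared with DMSO in parental cells to ask how histone gene RNA responds to the TEAD inhibitor. HIST1H2BD, an H2B gene, was at 7.54 ± 0.426 CPM in DMSO and 13.7 ± 1.38 CPM in VT107 (SD, n = 3 each), a log2FC of 0.93 (SE 0.20). edgeR's quasi-likelihood test without a replicate block called none of the 7 histone genes tested, as it called 0% of all 12891 genes tested, and HIST1H2BD had an adjusted p of 0.999. With the replicate number as a block it called HIST1H2BD higher (log2FC 0.93, SE 0.17, adjusted p = 0.0337), 1 of 7 histone genes against 1.67% of all genes, or 0.846% of all genes called higher. DESeq2 without a block also called HIST1H2BD higher (adjusted p = 0.0381), against 0.105% of all genes, and no other member, while voomWithQualityWeights and limma-voom called none.

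Of the other members, HIST2H2BE had a log2FC of 0.82 (SE 0.26; adjusted p = 0.122 in edgeR with the block), and HIST1H2BK one of 0.49 (SE 0.20; adjusted p = 0.166 with the block). HIST1H2AC had the largest value of the 7, 1.19 (SE 0.52), and with the block 1.13 (SE 0.24, edgeR adjusted p = 0.0503), above the threshold of 0.05. These differences did not pass the test. At an unadjusted p under 0.05, edgeR without the block gave 3 of the 7 (HIST1H2BD, HIST2H2BE and HIST1H2BK), against 3.68% of all genes. In the same 3 genes every VT107 library was above every DMSO library, against 2.82% of all genes tested. In none of the 7 tested members was every VT107 library below every DMSO library, against 6.22% of all genes. Below the filter, HIST3H2A had 1, 2 and 1 counts in DMSO and 0 in all 3 VT107 libraries. HIST1H4J, an H4 gene also below it, went the other way, with 3, 4 and 0 counts in DMSO and 7, 11 and 10 in VT107. Both lay outside the tested genes over which those shares were taken.

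HIST1H4C, HIST1H1C and HIST1H4H showed no such separation in parental cells. HIST1H4C was at 66.2 ± 56.5 CPM in DMSO and 69.0 ± 70.0 CPM in VT107 (SD, n = 3 each), with a log2FC of 0.21 (SE 1.27) that became -0.32 with the block. HIST1H1C was at 39.4 ± 23.9 and 30.9 ± 17.9 CPM (log2FC -0.26, SE 0.63) and HIST1H4H at 2.85 ± 0.535 and 2.21 ± 1.49 CPM (-0.27, SE 0.55). The median log2FC of the 7 genes was 0.49 and that of all genes tested 0.01. HIST1H4H was the member just inside the filter of 0.5 CPM in every library (lowest value 0.828 CPM) and HIST1H2BC the one just outside (0.365 CPM).

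Without the parental number 3 libraries, 11 histone genes passed the filter and none was called, against 0.329% of 13381 genes (edgeR), of which 0.164% were higher and 0.164% lower, while 5 members had an unadjusted p under 0.05, against 12.5% of all genes. HIST1H2BD then had a log2FC of 1.03 (adjusted p = 0.0868), HIST1H2AC 1.29 (adjusted p = 0.113), HIST1H2BK 0.65 (adjusted p = 0.221), HIST2H2BE 0.81 (adjusted p = 0.327) and HIST1H2BC 1.44 (adjusted p = 0.33). HIST1H4C had 0.30 (SE 0.44). The direction of the H2A and H2B genes was therefore the same without these libraries, with 2 libraries left per group.

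NF1 mutant cells were compared in the same way. HIST2H2BE was at 0.714 ± 0.0466 CPM in DMSO and 1.49 ± 0.301 CPM in VT107 (SD, n = 3 each), from 4, 3 and 3 counts against 6, 6 and 6, with a log2FC of 1.10 (SE 0.40, edgeR adjusted p = 0.774). It was 1 of 7 tested members with every VT107 library above every DMSO library, against 6.66% of all genes, and none had every VT107 library below (9.18% of all genes). HIST1H2BD (0.84), HIST1H4H (0.84), HIST1H2AC (0.83), HIST1H2BK (0.56) and HIST1H1C (0.25) had positive log2FC values with SE from 0.43 to 0.80, and HIST2H2AC had -0.03. HIST1H4H was at 3.71 CPM in VT107 number 1, against 0.832 and 0.609 CPM in numbers 2 and 3. HIST1H2BK was at 40.8 CPM in number 1, against 14.4 and 22.5 CPM. No member was called by edgeR, as 0% of all 11605 genes were, and 1 member (HIST2H2BE) had an unadjusted p under 0.05 against 5.27% of all genes. DESeq2, voomWithQualityWeights and limma-voom also called no member. Without VT107 number 1, edgeR gave 5 of 7 members a positive log2FC and called none of them, against 198 of 12443 genes called. HIST2H2AC lay just inside the filter (0.501 CPM) and HIST1H4C just outside (0.304 CPM).

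The VT107 response was then compared between the genotypes. In an interaction term over all 12 libraries, edgeR called none of the 6 members tested and 0% of all 11432 genes, and 0 members had an unadjusted p under 0.05, against 0.682% of all genes. The log2 differences (NF1 mutant response minus parental response) ran from -0.33 for HIST1H2AC (SE 0.88) to 1.14 for HIST1H4H (SE 1.03). The smallest SE were 0.47 for HIST2H2BE and 0.48 for HIST1H2BD, whose difference was -0.07. An SE is not a limit of detection, and differences in response larger than these SE could also be missed at this depth and number of libraries. DESeq2 and voomWithQualityWeights called no gene either.

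NF1 mutant cells differed from parental cells at baseline. In DMSO, 6 of the 7 histone genes tested were lower in NF1 mutant cells by edgeR, against 14.9% of all 12475 genes called lower, and none was higher. HIST1H4C fell most, from 66.2 ± 56.5 to 1.96 ± 0.934 CPM (SD, n = 3 each), a log2FC of -4.99 (SE 0.89, adjusted p = 0.00442). HIST1H1C fell from 39.4 ± 23.9 to 5.22 ± 0.334 CPM (-2.87, SE 0.46, adjusted p = 0.0027). The 4 genes with a printed polyA signal were also lower in the edgeR test. These were HIST2H2BE (-2.09, adjusted p = 0.00431), HIST1H2AC (-1.63, adjusted p = 0.0217), HIST1H4H (-1.36, adjusted p = 0.0288) and HIST1H2BD (-1.19, adjusted p = 0.00706).

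HIST1H2BK alone did not pass in DMSO, at 25.6 ± 2.42 CPM in parental and 19.6 ± 1.64 CPM in NF1 mutant cells (SD, n = 3 each; log2FC -0.35, SE 0.17, edgeR adjusted p = 0.158). In all 7 genes every NF1 mutant library lay below every parental library, against 23.5% of all genes tested, and 6 of the 7 had an unadjusted p under 0.05, against 40.5%. The median log2FC of the 7 was -1.63 and that of all genes -0.01. In bulk RNA, fewer cells that express a gene and less RNA per cell cannot be told apart. HIST2H2BE was just inside the filter (0.662 CPM) and HIST1H2AG just outside (0.224 CPM).

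Linker histone genes too low for that filter had few or no counts in NF1 mutant DMSO libraries. HIST1H1D had 24, 10 and 4 counts in parental DMSO libraries and 0 in all 3 NF1 mutant DMSO libraries, which is at least 4.87-fold lower with 3 counts over the NF1 mutant group as the limit. HIST1H1B had 16, 18 and 3 counts and 0 in all 3, at least 4.74-fold lower. HIST1H1E had 23, 15 and 6 counts against 2, 0 and 2. These limits cover counting error only, and in edgeR with no filter HIST1H1D (adjusted p = 0.0239) and HIST1H1B (adjusted p = 0.0244) were called lower, 7 of 49 members with a count being called lower against 12.1% of all genes in that fit.

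The calls in DMSO depended in part on which libraries entered. Without the parental number 3 library, 6 of 8 tested members were called lower, against 26.3% of all genes. The log2FC values were then -5.50 for HIST1H4C and -3.24 for HIST1H1C. Leaving out any other single library left 4 or 5 of 7 members called lower. All genes called lower were 1349 of 12527 and 1362 of 12513 without parental number 1 or 2. They were 996 of 12547, 1063 of 12681 and 1142 of 12591 without NF1 mutant number 1, 2 or 3. The members lost were HIST1H2AC and HIST1H4H. HIST1H2AC had adjusted p from 0.0518 (NF1 mutant number 1 left out) to 0.0955 (NF1 mutant number 2 left out) without any of the other 5 libraries, and HIST1H4H 0.0863, 0.12 and 0.103 without parental number 1, NF1 mutant number 1 or NF1 mutant number 3 (edgeR). The replicate numbers did not pair these libraries, and with the block 5 members were called lower, against 13.3% of all genes, HIST1H4H not among them (edgeR adjusted p = 0.0505).

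Under VT107 the same direction was seen between the genotypes, but no member passed edgeR's test, as 0% of 11654 genes did. HIST2H2BE was at 5.33 ± 0.194 CPM in parental and 1.49 ± 0.301 CPM in NF1 mutant cells (SD, n = 3 each), a log2FC of -1.80 (SE 0.40, adjusted p = 0.0968). HIST1H1C had -2.37 (SE 0.66, adjusted p = 0.152), HIST1H2AC -2.0 (SE 0.66, adjusted p = 0.205) and HIST1H2BD -1.28 (SE 0.44, adjusted p = 0.214). In these 4 of 6 tested genes every NF1 mutant library was below every parental one, against 14.1% of all genes, none was above in every library (9.99% of all genes), and these 4 also had an unadjusted p under 0.05, against 16.7%. DESeq2 called 2 members lower, HIST1H1C (adjusted p = 0.0109) and HIST2H2BE (adjusted p = 0.0219), against 3.93% of all genes. By voomWithQualityWeights all 6 were lower, against 17.6% of all genes, and limma-voom called none. Without the parental number 3 library edgeR called none of 7 members, against 0.692% of all genes called lower, and HIST1H1C had -2.80 (adjusted p = 0.071) and HIST2H2BE -1.85 (adjusted p = 0.0838).

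HIST1H4C was left out of that comparison by the filter, since 2 NF1 mutant VT107 libraries were under 0.5 CPM. It was at 63.2, 142 and 2.03 CPM in parental and 2.09, 0.416 and 0.304 CPM in NF1 mutant libraries, so the groups overlapped through parental number 3 and NF1 mutant number 1. With no filter edgeR called it lower (log2FC -6.10, adjusted p = 0.0322), the 1 member of 45 called, against 0.917% of all genes called lower. HIST1H1D and HIST1H1E had no count in NF1 mutant VT107 libraries, against 34 and 31 counts over the parental ones, at least 3.6-fold and 3.28-fold lower with 3 counts over the group as the limit. HIST1H4H was the member just inside the filter (0.609 CPM) and HIST2H2AC the one just outside (0.452 CPM). The comparisons of genotypes in DMSO and under VT107 share no library. Each shares libraries with the comparisons of VT107 against DMSO, so its list of genes is not independent of theirs.

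**Figure D4:**
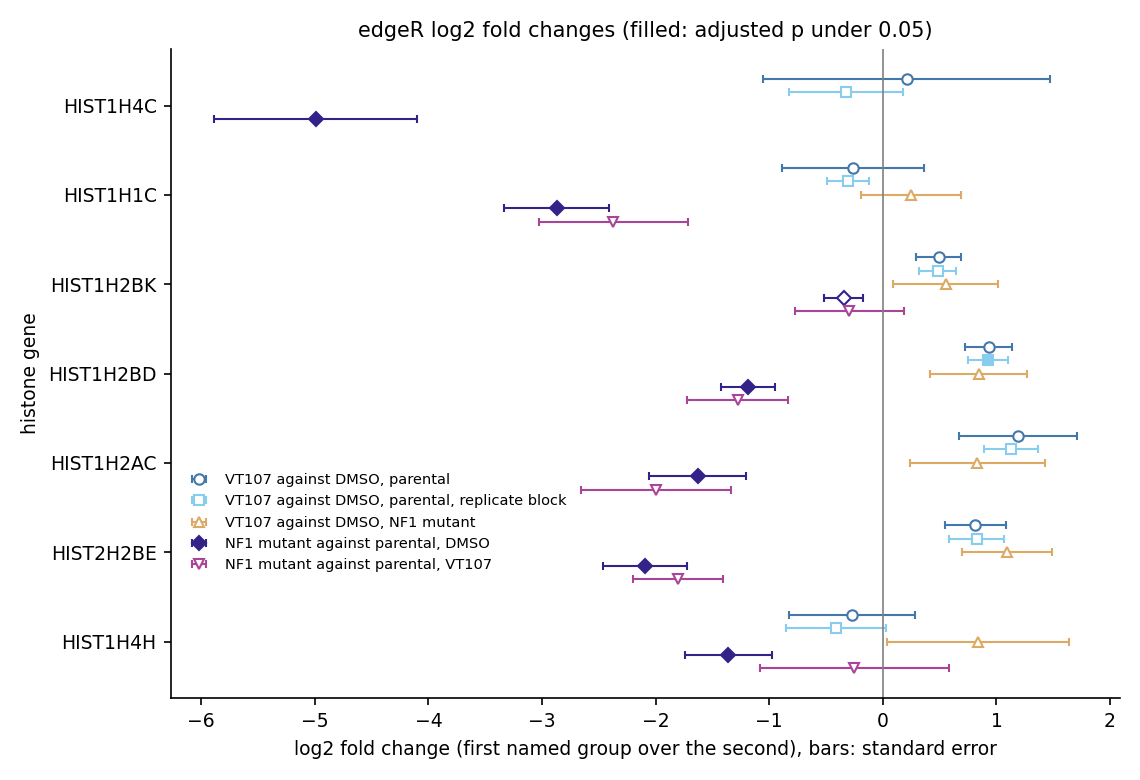
edgeR log2FC values with SE (horizontal axis) of the 7 histone genes with at least 100 counts, for VT107 against DMSO in parental cells (without and with the replicate block) and in NF1 mutant cells, and for NF1 mutant against parental cells in DMSO and in VT107. Filled symbols have an adjusted p under 0.05, which 6 genes reach in the DMSO comparison of genotypes and HIST1H2BD reaches with the block, and missing symbols are genes under the CPM filter.

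Members were split at a span of 1000 bases after their values had been seen, and the split is given as a description with no test. The 23 longer genes, whose counts come mainly from HIST1H2BK, HIST1H2BD, HIST1H2AC, HIST2H2BE and HIST1H4H, summed to 52.1, 45.7 and 44.4 CPM in parental DMSO and 70.4, 84.7 and 58.5 CPM in parental VT107. Their sums in NF1 mutant cells were 32.4, 28.7 and 25.3 CPM in DMSO and 52.6, 25.4 and 41.4 CPM in VT107. The ratio of group means was 1.5 ± 0.307 for VT107 over DMSO in parental cells and 0.608 ± 0.0918 for NF1 mutant over parental cells in DMSO (SD carried over from n = 3 each).

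The 49 genes of 1000 bases or less, led by HIST1H4C and HIST1H1C, summed to 198, 110 and 30.3 CPM in parental DMSO and 114, 190.0 and 15.7 CPM in parental VT107. In NF1 mutant cells they summed to 11.1, 9.94 and 8.53 CPM in DMSO and 6.26, 9.16 and 10.96 CPM in VT107. The ratio was 0.947 ± 1.05 for VT107 over DMSO in parental cells and 0.0874 ± 0.0662 for NF1 mutant over parental cells in DMSO (SD carried over from n = 3 each). HIST1H4C and HIST1H1C gave 93.1% of the counts of these 49 genes, so the sums mainly describe that pair. The next short gene, HIST2H2AC, was at 0.8 ± 0.576 CPM in parental DMSO and 1.03 ± 0.462 CPM in NF1 mutant DMSO (SD, n = 3 each). Without parental number 3, a setting added after the data were seen, the ratios for VT107 in parental cells were 1.59 for the longer and 0.989 for the shorter genes, and those of the genotypes in DMSO 0.589 and 0.064. The 20 genes with AATAAA near an annotated end summed to 20.5 ± 3.01 CPM in parental DMSO and 35.3 ± 8.14 CPM in parental VT107 (SD, n = 3 each). In NF1 mutant cells they summed to 8.97 ± 1.53 CPM in DMSO and 13.5 ± 4.71 CPM in VT107 (SD, n = 3 each). HIST1H4J, with its AATAAA before the hairpin, is among these 20.

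**Figure D5:**
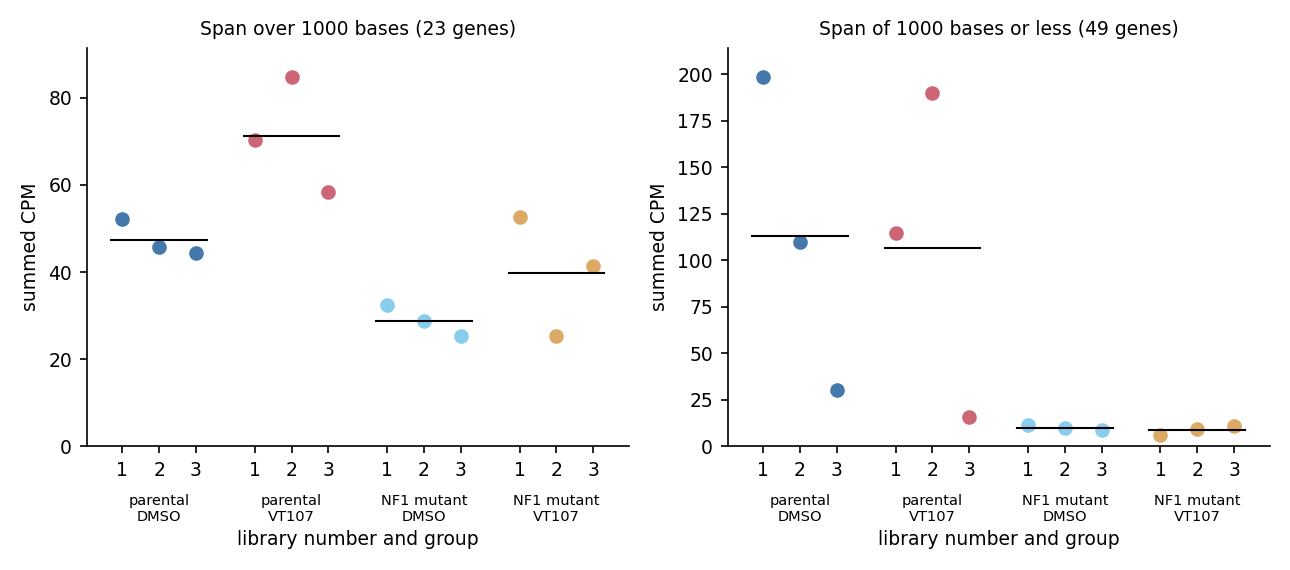
Summed CPM (vertical axes, each from 0) of the 23 histone genes with a span over 1000 bases (left) and the 49 genes of 1000 bases or less (right) in each library, with group means as black lines. Parental VT107 points of the longer genes lie above those of DMSO, while the shorter genes range from 15.7 to 198 CPM within parental cells and from 6.26 to 11.1 CPM in NF1 mutant cells.

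RNAs of other kinds that also lack a polyA tail were looked at beside these genes. Of 20 such RNAs listed, RN7SL1, RPPH1 and SCARNA10 had a row. RN7SL1, the RNA of the signal recognition particle, was at 6.70, 5.22 and 3.84 CPM in parental DMSO, 8.09, 8.45 and 1.66 CPM in parental VT107, 0.547, 0.662 and 1.00 CPM in NF1 mutant DMSO and 2.55, 0.624 and 0 CPM in NF1 mutant VT107. Like HIST1H4C, it was lowest in number 3 of both parental groups, and it was lower in NF1 mutant cells in DMSO (log2FC -2.81, edgeR adjusted p = 0.00152, and -2.98 without parental number 3). RPPH1, the RNA of ribonuclease P, was at 2.31, 2.53 and 2.83 CPM in parental DMSO and 3.46, 5.74 and 2.26 CPM in NF1 mutant DMSO and was not called. SCARNA10 had counts in parental libraries 1 and 2 of both groups alone. In parental VT107 RPPH1 was at 3.22, 6.12 and 1.88 CPM, so it was lowest in number 3 there but not in DMSO. RN7SL1 and SCARNA10 were lowest in number 3 in both parental groups, as HIST1H4C was, and the part of carried-over RNA without a tail in the histone results was not tested.

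Factors that transcribe histone genes or process their mRNA were followed as a list of 18 genes, all tested. For VT107 edgeR called none in either genotype, and 0 had an unadjusted p under 0.05, while in the DMSO comparison of genotypes it called 3 higher and 3 lower, beside 12.5% of all genes called higher and 14.9% lower. Those shares are the background for the lists that follow too. For VT107, 3.68% of all genes in parental and 5.27% in NF1 mutant cells had an unadjusted edgeR p under 0.05. Without parental number 3, 5 were called higher and 5 lower, beside 3105 of all 12585 genes called higher and 3304 lower. These larger counts are the background wherever that library is left out in the lists that follow. Lower in NF1 mutant cells were CASP8AP2 (FLASH, needed for histone mRNA 3′ processing; log2FC -2.32, adjusted p = 0.0139), SYMPK (a scaffold of the cleavage complex; -1.21, adjusted p = 0.00178) and NPAT (the coactivator of histone genes at the histone locus body; -1.02, adjusted p = 0.0218). Higher were LSM10 (a U7 snRNP protein; 1.35, adjusted p = 0.00177), LSM1 (a decapping cofactor; 0.88, adjusted p = 0.00222) and SRRT (ARS2, a partner of the cap-binding complex; 0.46, adjusted p = 0.0182).

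CASP8AP2 and NPAT also set number 3 apart among parental libraries. CASP8AP2 was at 22.9, 21.1 and 5.39 CPM in parental DMSO and 21.1, 17.0 and 4.52 CPM in parental VT107, against 2.08 to 4.26 CPM in NF1 mutant libraries. NPAT was at 48.6, 42.9 and 22.5 CPM in parental DMSO and 45.8, 36.0 and 14.7 CPM in parental VT107, against 9.73 to 19.4 CPM in NF1 mutant libraries. Without number 3 both were still lower in NF1 mutant cells in DMSO (CASP8AP2 -2.75, NPAT -1.29). Their part in the histone gene values was not tested.

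S phase genes were followed because the histone clusters are transcribed in S phase. The list of 24 also holds CDKN1A and CDKN1B, which encode inhibitors of cyclin-dependent kinases. Its counts, median and sums therefore mix genes of opposed roles. All 24 were tested, and for VT107 edgeR called none in either genotype. At an unadjusted p under 0.05 it gave 5 of 24 in parental cells, against 3.68% of all genes. In NF1 mutant cells it gave 0, against 5.27%. The median log2FC of the 24 in parental cells was -0.29, with 3 of 24 above 0, and that of all genes was 0.01. In the DMSO comparison of genotypes 7 were higher in NF1 mutant cells and 2 lower by edgeR, and 10 higher and 3 lower without parental number 3. Those with the smallest p were RRM1 (-1.22, adjusted p = 0.000192) and RRM2 (0.79, adjusted p = 0.00143), the subunits of ribonucleotide reductase, GINS2 of the replicative helicase (0.94, adjusted p = 0.00145) and CCNE2, cyclin E2 (-1.18, adjusted p = 0.0033). The summed level of the list was 2783 to 3194 CPM in parental DMSO, 2161 to 2857 CPM in parental VT107 and 2798 to 3311 CPM in NF1 mutant libraries. Opposite changes enter that sum. RRM1 was at 607 to 664 CPM in parental DMSO and 247 to 272 CPM in NF1 mutant DMSO libraries. RRM2 was at 266 to 322 CPM and 472 to 530 CPM in the same groups. The part of S phase in the histone gene values was not tested.

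Replication-independent histone genes mostly give polyadenylated mRNA, and many are expressed outside S phase. This does not hold to the same degree for every gene listed, H2AFX and CENPA among them. Of 12 listed 11 were tested, and in the DMSO comparison of genotypes edgeR called 3 higher and 2 lower. H2AFZ, which encodes H2A.Z, was at 872, 841 and 794 CPM in parental and 1873, 1899 and 1857 CPM in NF1 mutant DMSO libraries (log2FC 1.2, adjusted p = 0.000119). CENPA, the centromeric H3, also rose (0.96, adjusted p = 0.00227), while H2AFX, which encodes H2A.X, fell (-1.0, adjusted p = 0.00325). H3F3B, a gene for H3.3, was higher (0.53, adjusted p = 0.00584) and H2AFJ lower (-2.0, adjusted p = 0.0259). Without parental number 3, H2AFJ had -1.09 (edgeR adjusted p = 0.000229), and 4 genes of the list were called higher and 3 lower. For VT107 edgeR called none. At an unadjusted p under 0.05 it gave 1 of 11 in parental cells, against 3.68% of all genes, and 0 in NF1 mutant cells, against 5.27%. In parental cells H2AFJ was at 46.7 and 74.6 CPM in the number 3 libraries against 12.8 to 16.9 CPM in the other 4, and H1FX at 163 and 214 CPM against 52.4 to 83.9 CPM, so these genes were high in the libraries in which HIST1H4C was low.

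Of 16 histone chaperones, all tested in DMSO, edgeR called 2 higher and 5 lower in NF1 mutant cells in DMSO, and 3 higher and 7 lower without parental number 3. For VT107 it called none, and 0 had an unadjusted p under 0.05. Those with the smallest p were NAP1L1, a chaperone of H2A and H2B (-0.74, adjusted p = 0.00119), SUPT16H of the FACT complex (-1.04, adjusted p = 0.00232), ASF1B, a chaperone of H3 and H4 (0.68, adjusted p = 0.00595), and CHAF1A of chromatin assembly factor 1 (-0.77, adjusted p = 0.0205). No gene of the 5 lists was called by edgeR in the genotype comparison under VT107 or in the interaction, and without parental number 3 1 factor was called lower in the former. At an unadjusted p under 0.05, edgeR's genotype comparison under VT107 gave 7 of 24 S phase genes and 3 of 15 chaperones. It also gave 3 of 18 transcription and processing factors and 1 of 11 replication-independent histone genes. The share of all 11654 genes was 16.7%, so the counts of factors, chaperones and histone genes lay near it. The interaction gave 0, against 0.682% of all genes.

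The genes whose log2 CPM was most like the summed level of the histone members over the 12 libraries, among 11426 compared, were KTN1 (Pearson r = 0.958), YEATS4 (0.957), AP2B1 (0.955), ZMAT3 (0.955) and CEP89 (0.953). The 12 points fall into parental and NF1 mutant libraries and share library set and depth within each, so these values mainly describe that split and carry no p.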

How the data were processed

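The authors sequenced single-end 75-base reads, made with bcl2fastq 2.20.0.422, and used genome build hg19. The sources used here do not name the aligner, counter, annotation or strand setting. The deposited table holds raw counts per gene, with no normalization by the authors. Counts of 63 repeated IDs were summed. H226 cells and 16 columns of siRNA samples were not used.

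edgeR 4.0.16 (R 4.3.3) fitted each comparison over all genes that reached 0.5 CPM in each of its libraries, with TMM factors, the quasi-likelihood test and Benjamini-Hochberg adjustment at 0.05. A standard error is the size of the log2 fold change divided by the root of F. Alternatives used limma 3.58.1, DESeq2 1.42.0, RLE factors, other filters, a replicate block, all groups in 1 fit, and libraries left out. Same-numbered parental libraries deviated together from their group means (correlations 0.654, 0.532 and 0.822), although numbers 1 and 2 also correlated with each other (0.552 and 0.642), so the check sets number 3 apart. The tests were tried on simulated data. An exact permutation test of 3 against 3 cannot go below 0.1 and was not used.

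Called members, the 4 highest of each type and those nearest the filter were named, as were up to 4 genes per list. The members and lists were chosen with earlier results of these data known. Sequences came from GENCODE 29 and RefSeq.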

Additional observations from a re-analysis of the deposited data

How the results depend on the processing

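Library depth and number limit these results: NF1 mutant libraries held 3285363 to 5489092 counts, most histone genes lay under the filter of 0.5 CPM, and groups had 3 libraries. Without a replicate block edgeR called 0 genes for VT107 in parental cells, against 215 with the block, 32 by DESeq2, 18 by voomWithQualityWeights and 44 without the parental number 3 libraries. The block and DESeq2 each called 1 histone gene there. For VT107 in NF1 mutant cells 20 genes were called by DESeq2, 164 by voomWithQualityWeights and 3 with all 4 groups in 1 fit. In the DMSO comparison of genotypes these last settings gave 6551 and 963 genes, and leaving out parental number 3 gave 6409. Histone genes called lower there were 3 of 4 tested when a gene needed 10 counts in 2 libraries per group. That setting called 1806 of 11524 genes lower. With all 4 groups in 1 fit, 3 of 6 were called lower, against 735 of 11432 genes. HIST1H4C missed the threshold in limma-voom (adjusted p = 0.0726). Under VT107 the comparison of genotypes called 682 genes by DESeq2, 3625 by voomWithQualityWeights and 196 with no filter. It called 1297 with all 4 groups and 82 without number 3. Histone genes called under the first 4 of these settings were 2 of 6, 6 of 6, 1 of 45 and 4 of 6, all lower. All genes called lower there were 449 of 11423, 2050 of 11654, 176 of 19191 and 744 of 11432. The summed histone level of NF1 mutant over parental cells in DMSO was a ratio of 0.242, and 0.391 without HIST1H4C. In each case the cause was not tested.

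Some log2 fold changes that had not passed the test took the other sign. For VT107 in parental cells, HIST1H4C had -0.15 by voomWithQualityWeights, -0.73 by limma-voom and -0.32 with the replicate block, and HIST1H4H had 0.10 without number 3. In NF1 mutant cells voomWithQualityWeights gave -0.045 for HIST1H2BK, -0.42 for HIST1H4H and 0.25 for HIST2H2AC, which had 0.0856 by limma-voom. For the interaction voomWithQualityWeights gave 0.13 for HIST1H2AC, 0.16 for HIST1H2BD, -0.60 for HIST1H2BK and -0.15 for HIST1H4H, and HIST1H2BK had -0.13 by limma-voom, -0.0819 with the block and -0.0466 without number 3.

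With each library left out in turn, genes called ran from 0 to 198 for VT107 in NF1 mutant cells (198 without VT107 number 1), from 1779 to 6409 for the genotypes in DMSO and from 0 to 184 under VT107 (184 without NF1 mutant number 1). Histone genes called in DMSO ran from 4 to 6, all lower, beside 996 to 3304 of all genes called lower. Log2 fold changes for VT107 in parental cells ran from -0.62 to 0.26 for HIST1H1C, -1.04 to 1.02 for HIST1H4C and -1.01 to 0.14 for HIST1H4H. In NF1 mutant cells they ran from -0.0886 to 0.60 for HIST1H1C, -0.14 to 0.88 for HIST1H2BK, -0.53 to 1.26 for HIST1H4H and -0.32 to 0.17 for HIST2H2AC. Between genotypes under VT107 they ran from -0.96 to 0.0416 for HIST1H2BK and -1.65 to 0.49 for HIST1H4H. For the interaction they ran from -0.0049 to 0.90 for HIST1H1C, -0.81 to 0.15 for HIST1H2AC, -0.58 to 0.15 for HIST1H2BD, -0.60 to 0.41 for HIST1H2BK and -0.27 to 1.88 for HIST1H4H.

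The replicate numbers did not pair libraries outside parental cells (same-number correlations -0.17, -0.217 and 0.161 in NF1 mutant cells), and apart from HIST1H2BD for VT107 in parental cells and HIST1H4H for the genotypes in DMSO, the block changed no call of a named histone gene.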
